A study of Mus musculus with 12 samples.

Results

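The 10 genes described here encode RNA-binding proteins that set how long cytokine mRNAs last in a cell. They were chosen by gene symbol as known binders of AU-rich elements or stem-loops, and they are 10 of the 16920 genes in each deposited table. Zfp36 (tristetraprolin), Zfp36l1 and Zfp36l2 form the TTP family of zinc finger proteins. Zc3h12a (Regnase-1) and Zc3h12c (Regnase-3) are endoribonucleases, and Rc3h1 and Rc3h2 encode the Roquins. Elavl1 (HuR), Hnrnpd (AUF1) and Khsrp (KSRP) complete the set. All 10 passed the filter on low counts, and they are 10 of the 12064 genes tested.

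Many mRNAs of inflammatory mediators carry AU-rich elements (AREs), runs of overlapping AUUUA words in the 3′ untranslated region (3′ UTR). TTP proteins bind these elements and bring in the CCR4-NOT deadenylase, whereas HuR bound to the same kind of element is known to keep an mRNA stable. Regnase-1 and the Roquins recognise short stem-loops whose loop is a pyrimidine, a purine and a pyrimidine, Regnase-1 by cutting the mRNA and the Roquins by recruiting deadenylases. In macrophages, lipopolysaccharide (LPS), a bacterial cell wall component sensed by TLR4, is known to induce both TTP and Regnase-1, which limit the cytokines induced with them.

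The libraries came from peritoneal macrophages of young adult C57BL/6 mice, either wild type (WT) or labelled Ythdf1 knockout (Ythdf1-/-, KO), kept in culture overnight and then given PBS or LPS at 1 µg/mL for 6 h. There were 3 libraries in each of the 4 groups, WT PBS, WT LPS, KO PBS and KO LPS. Sources differ on what elicited the macrophages, starch broth in the series record and thioglycollate in the methods of the study. The labels and the methods of the study call the libraries of a group independent samples and biological replicates, and whether each came from its own mouse is not given in the sources used here.

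Total counts lay between 21546274 and 22017005 per library. Ythdf1, which encodes a reader of the RNA mark m6A and is the targeted gene, was not lower in the libraries labelled KO, at 57.2 ± 1.53 (SD, n = 3) against 43.5 ± 1.54 CPM (counts relative to library sizes scaled by TMM, the trimmed mean of M values) under PBS and 198 ± 6.94 against 201 ± 9.37 CPM under LPS. Counts per gene do not show which exons were read, so they do not check the labels, and the groups are called KO-labelled throughout. The 8 macrophage markers were present in every library and summed to between 17169.6 and 19942.5 CPM. The markers of B cells, T cells, mast cells and eosinophils that the tables hold summed to at most 1.92, 2.93, 3.56 and 3.54 CPM in any library, and those of neutrophils to 5.42 to 21.1 CPM.

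The 3′ UTRs of the members show which of them carry the kind of element that the set itself binds. The longest 3′ UTR of a transcript linked to RefSeq was taken for each gene from the GENCODE transcripts of build GRCm38. The nonamer UUAUUUAUU, the preferred TTP site, was found in 6 of the 10 members and in 7.7% of the 11692 tested genes with such a 3′ UTR. Its core heptamer UAUUUAU was found in 7 of 10 members and in 29.4% of those genes. The members have long 3′ UTRs, with a median of 2628 bases against 1084 over all tested genes, and held 0.738 heptamers per kilobase against 0.292. Only the sense strand was searched, and the nonamer contains the heptamer. For each member with a nonamer 1 window of 30 bases is shown, with nonamers and heptamers in capitals. The window of Elavl1 holds several overlapping nonamers.
Zfp36, chr7:28376950-28376979, minus strand: UAUgacgacuUUAUUUAUUguauuaagauu
Zfp36l1, chr12:80108166-80108195, minus strand: aacuguuggaUUAUUUAUUuuagaaauucu
Zfp36l2, chr17:84184913-84184942, minus strand: acuauuuaacUUAUUUAUUaucuugugaaa
Rc3h1, chr1:160970043-160970072, plus strand: acuuuacucaUUAUUUAUUgagaugaggag
Rc3h2, chr2:37373286-37373315, minus strand: caaagacauuUUAUUUAUUuuacucuguaa
Elavl1, chr8:4285783-4285812, minus strand: ugaaaaUUAUUUAUUUAUUUAUUUAUUuUU
Elavl1 held 8 nonamers in its 3′ UTR of 4218 bases, the first starting at base 3794 and the last at base 3840 after the stop codon. Zfp36, Zfp36l1 and Zfp36l2 held 1 nonamer and 3 heptamers each. Zc3h12c held 2 heptamers and no nonamer, and Zc3h12a, Hnrnpd and Khsrp held neither.

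Stem-loops were searched as 5 Watson-Crick base pairs closed by a loop of 3 bases in the order pyrimidine, purine, pyrimidine. They were found in 5 of the 10 members, namely Zc3h12a with 3, Rc3h1 with 4, Rc3h2 with 2, and Zc3h12c and Hnrnpd with 1 each. The Rc3h1 matches that start at bases 2002 and 2005 after the stop codon overlap each other. Such a match occurred in 23.5% of the 11692 tested genes with a 3′ UTR. These shares do not account for the longer 3′ UTRs of the members, with a median of 2628 bases against 1084. The stem-loops of both Regnases and the rarer of the pair that Rc3h1 and Rc3h2 have in common are shown, with the stem and loop in capitals.
Zc3h12a, chr4:125119061-125119090, minus strand: cccuguugAUACACAUUGUAUcucugucau
Zc3h12a, chr4:125118879-125118908, minus strand: gcuaguuaGGCACCAUGUGCCugcucucug
Zc3h12a, chr4:125118655-125118684, minus strand: ggcgagauUUAAAUAUUUUAAaugaaaaag
Zc3h12c, chr9:52113461-52113490, minus strand: caauaaucUGAACCAUGUUCAgcaaacuua
Rc3h1, chr1:160971653-160971682, plus strand: agccaauaACUUCUGUGAAGUugccuuuuc
Rc3h2, chr2:37373801-37373830, minus strand: uuuaauuaACUUCUGUGAAGUuguuuacuc
The Roquin genes share the 13 bases ACUUCUGUGAAGU, which 6 of the 11692 genes hold, and the 13 bases AUAUAUAUUAUAU, which 42 hold. A match is a description of the letters in a window and was not tested as a binding site.

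LPS moved the mRNA of the members up or down in WT cells, with Khsrp near the threshold. In edgeR's quasi-likelihood test with Benjamini-Hochberg adjustment over all 12064 genes, 7 members rose and 3 fell, where 36.5% of all genes rose, 40.2% fell and 76.7% were called in either direction. The WT call of Khsrp was lost in 13 of 20 alternatives, and those of Rc3h1, Rc3h2 and Hnrnpd under library totals alone. Being called was common among all genes, and the members differed among themselves in the size of their change. Zc3h12a, Zfp36 and Zc3h12c rose by 4.79, 3.50 and 3.05 on the log2 scale, Zfp36l2 and Zfp36l1 fell by 2.47 and 1.75, and the other 5 members moved by less than 1. The median log2 fold change of the members was 0.76, beside -0.05 over all genes. In the KO-labelled cells 7 members again rose and 3 fell, where 38.8% of all genes rose, 41.1% fell and 79.9% were called, and the median was 1.06 beside -0.04. Fewer cells of a type and less RNA per cell cannot be told apart in these bulk libraries.

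**Figure D1:**
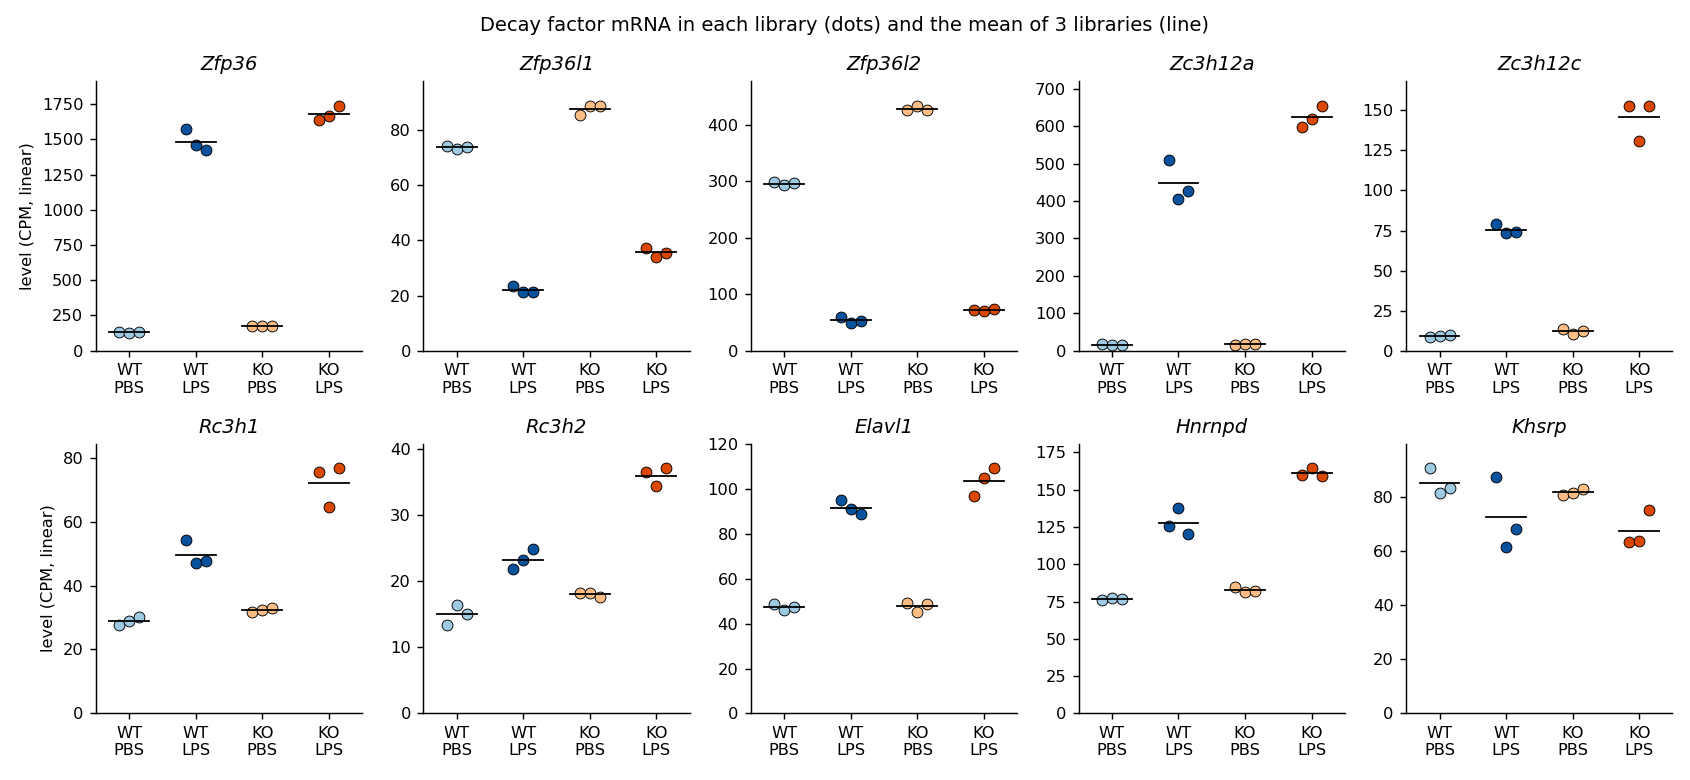
Level of each decay factor in CPM (linear axis from 0, scaled per gene) in the 3 libraries of each group (dots), with the group mean as a line. Zfp36, Zc3h12a and Zc3h12c are near the bottom of their axes in both PBS groups and well above that in both LPS groups. Zfp36l1 and Zfp36l2 are higher in both PBS groups than in both LPS groups, and the WT LPS dots of Khsrp spread from 61.7 to 87.4 CPM.

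Within the TTP family, Zfp36 rose while Zfp36l1 and Zfp36l2 fell. Zfp36 stood at 133, 126 and 134 CPM in the WT PBS libraries and at 1574, 1457 and 1423 CPM in the WT LPS libraries, an 11.3-fold rise (log2 fold change 3.50, SE 0.06, adjusted p = 8.62e-18, edgeR). In KO-labelled cells it stood at 173, 176 and 173 CPM with PBS and at 1635, 1668 and 1740.3 CPM with LPS, a 9.68-fold rise (log2 3.27, SE 0.06). No PBS library came near an LPS library. TTP is the family member that LPS is known to induce.

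Zfp36l2, which acts in lymphocyte development and oocyte maturation, was the most abundant member per transcript length in PBS and lost most of its mRNA with LPS. It stood at 298, 293 and 296 CPM in WT PBS and at 59.9, 48.5 and 52.1 CPM in WT LPS libraries, a 5.53-fold fall (log2 -2.47, SE 0.07, adjusted p = 2.86e-15, edgeR). In KO-labelled cells it went from 425, 434 and 425 CPM to 71.5, 69.8 and 74.2 CPM, a 5.96-fold fall (log2 -2.57, SE 0.07). Zfp36l1, known for its role with Zfp36l2 in quiescence of B lymphocyte precursors, followed the same direction. Its level was 74.2, 73.2 and 73.7 CPM in WT PBS and 23.3, 21.1 and 21.3 CPM in WT LPS, a 3.36-fold fall (log2 -1.75, SE 0.06, adjusted p = 7.12e-14, edgeR). With KO-labelled cells the values were 85.5, 88.6 and 88.9 CPM in PBS and 37.3, 34.1 and 35.5 CPM in LPS, a 2.46-fold fall (log2 -1.30, SE 0.06). PBS and LPS libraries did not overlap for either gene.

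The family therefore changed its makeup, a view taken after the values had been seen and given without a test. RPKM (CPM per kilobase) values were summed over the 3 genes, each divided by the summed length of its exons. Zfp36 made up 25.8% ± 0.51 (SD, n = 3) of the sum in WT PBS and 95.0% ± 0.24 in WT LPS, and Zfp36l2 went from 57.3% ± 0.37 to 3.36% ± 0.22. In KO-labelled libraries Zfp36 went from 25.0% ± 0.08 to 93.8% ± 0.22 and Zfp36l2 from 60.4% ± 0.16 to 3.94% ± 0.08. The summed level itself rose from 146 ± 1.96 to 450.3 ± 24.6 RPKM in WT and from 201 ± 2.28 to 517 ± 15.8 RPKM in KO-labelled libraries. These shares do not depend on how libraries are scaled, and with the longest transcript as the length Zfp36 held 30.2% and 96.0% in the WT groups.

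**Figure D2:**
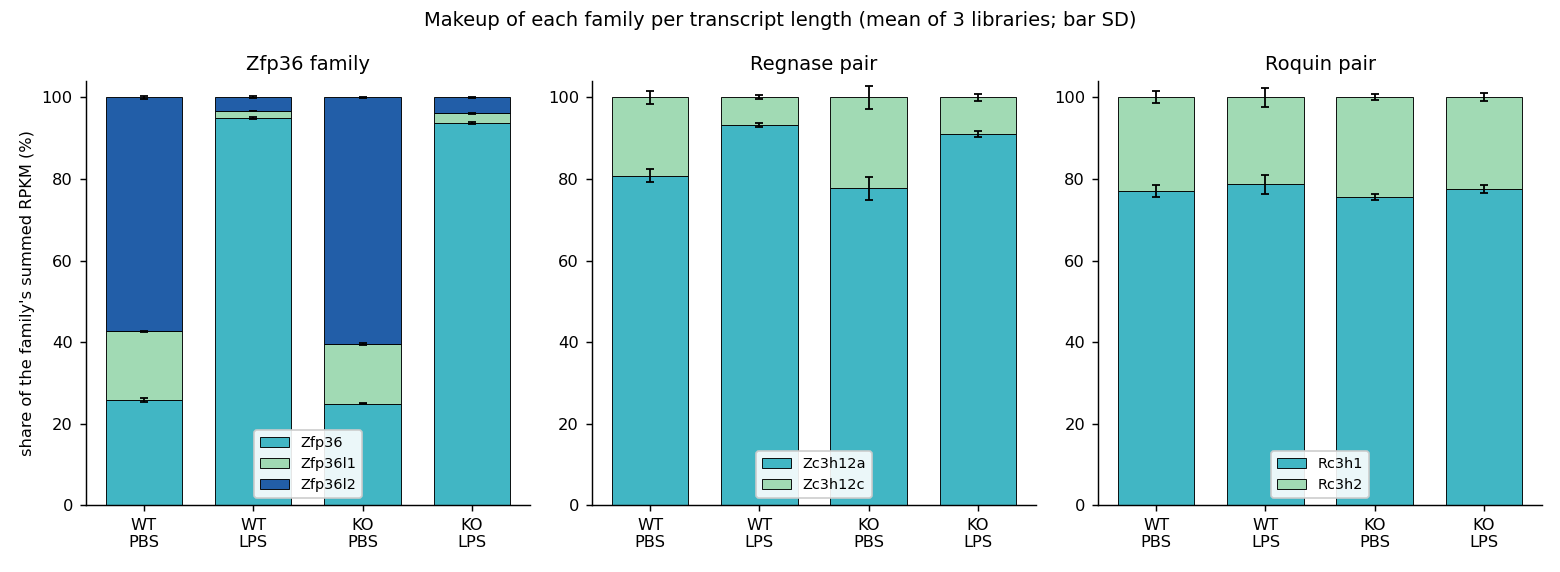
Share of each family's summed RPKM (%) held by each gene in the 4 groups, as the mean of 3 libraries with SD bars at the top of each segment. In the Zfp36 family Zfp36 goes from 25.8% to 95.0% with LPS in WT cells, in the Regnase pair Zc3h12a goes from 80.8% to 93.3%, and the Roquin pair stays between 75.6% and 78.6% Rc3h1.

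Both Regnase genes rose, and Zc3h12a rose most of all members. Zc3h12a, whose protein cuts Il6 and Il12b mRNA among others, was at 17.0, 15.3 and 16.1 CPM in WT PBS and at 511, 405 and 426 CPM in WT LPS libraries, a 27.7-fold rise (log2 4.79, SE 0.09, adjusted p = 4.18e-17, edgeR). In KO-labelled cells it went from 16.5, 17.5 and 19.0 CPM to 597, 619 and 655 CPM, a 35.3-fold rise (log2 5.14, SE 0.10). WT LPS replicate 1 was the highest of its group. Its deposited values carry decimals in all 12 libraries, so some of its reads were shared out by estimation.

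Zc3h12c, the related endonuclease Regnase-3, was a low transcript in PBS. Its values were 8.46, 9.23 and 9.61 CPM in WT PBS and 78.9, 73.5 and 74.2 CPM in WT LPS libraries, an 8.30-fold rise (log2 3.05, SE 0.09, adjusted p = 1.02e-14, edgeR). KO-labelled libraries held 13.5, 10.5 and 12.1 CPM with PBS and 153, 131 and 153 CPM with LPS, a 12.1-fold rise (log2 3.60, SE 0.09). Every KO LPS library lay well above every WT LPS library. Of the summed RPKM of the pair, Zc3h12a held 80.8% ± 1.64 in WT PBS and 93.3% ± 0.51 in WT LPS.

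The Roquin genes rose less. Rc3h1 (Roquin-1), whose mutation in the sanroque mouse causes autoimmunity, was at 27.6, 28.9 and 30.2 CPM in WT PBS and at 54.2, 46.9 and 47.7 CPM in WT LPS libraries (log2 0.78, SE 0.08, adjusted p = 8.08e-08, edgeR). Its KO-labelled values were 31.6, 32.4 and 32.9 CPM in PBS and 75.4, 64.5 and 76.7 CPM in LPS (log2 1.16, SE 0.08). Rc3h2 (Roquin-2), its paralog with overlapping function, was at 13.5, 16.4 and 15.1 CPM in WT PBS and at 21.8, 23.2 and 24.9 CPM in WT LPS libraries (log2 0.63, SE 0.08, adjusted p = 1.73e-06, edgeR). In KO-labelled cells Rc3h2 went from 18.3, 18.3 and 17.6 CPM to 36.5, 34.4 and 37.1 CPM (log2 1.00, SE 0.08). The groups did not overlap in either genotype label, and Rc3h1 made up 77.0% ± 1.46 (SD, n = 3) of the pair in WT PBS and 78.6% ± 2.26 in WT LPS. With the longest transcript as the length these shares were 61.1% and 63.4%.

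Of the other 3 binders, Elavl1 and Hnrnpd rose and Khsrp fell slightly under TMM scaling, and the size of all of these changes moved with the scaling. Elavl1, whose protein HuR protects ARE mRNAs, went from 48.8, 46.0 and 47.5 CPM to 95.1, 91.4 and 89.1 CPM in WT libraries (log2 0.95, SE 0.06, adjusted p = 3.14e-10, edgeR), and from 49.1, 45.4 and 48.9 CPM to 97.0, 105 and 109 CPM in KO-labelled ones (log2 1.12, SE 0.06). Hnrnpd, whose protein AUF1 is made in several isoforms and mostly speeds ARE decay, went from 76.2, 77.5 and 76.9 CPM to 125, 138 and 120.5 CPM in WT libraries (log2 0.74, SE 0.06, adjusted p = 3.99e-09, edgeR). The KO-labelled values of Hnrnpd were 84.8, 81.1 and 82.0 CPM in PBS and 159.6, 164 and 159 CPM in LPS (log2 0.96, SE 0.06). For Elavl1 and Hnrnpd no LPS library overlapped a PBS library, and Hnrnpd counts carry decimals in all 12 libraries.

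Khsrp, whose protein KSRP recruits decay enzymes to AREs, had the smallest change of the members under TMM scaling. It was at 90.7, 81.6 and 83.6 CPM in WT PBS and at 87.4, 61.7 and 68.3 CPM in WT LPS libraries, so that the groups overlapped (log2 -0.24, 95% confidence interval -0.45 to -0.02, adjusted p = 0.0467, edgeR). That call was lost in 13 of 20 alternatives, with adjusted p-values from 0.0509 to 0.232 in those 13. Among single libraries, leaving out KO LPS replicate 3 or WT LPS replicate 1 kept it and leaving out any other ended it, and without WT LPS replicate 2 the log2 fold change was -0.13. Among other scalings the log2 fold change of Khsrp was -0.19 with RLE (adjusted p = 0.109, edgeR), -0.55 with upper-quartile scaling (adjusted p = 3.77e-05) and -0.90 with library totals alone (adjusted p = 1.33e-07). In KO-labelled cells Khsrp went from 80.9, 81.7 and 83.1 CPM to 63.4, 63.8 and 75.4 CPM (log2 -0.28, SE 0.10, adjusted p = 0.0211), and the value was -0.64 with upper-quartile scaling and -1.08 with library totals alone. The call was lost there without KO LPS replicate 1 (0.0874) or replicate 2 (0.0806).

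**Figure D3:**
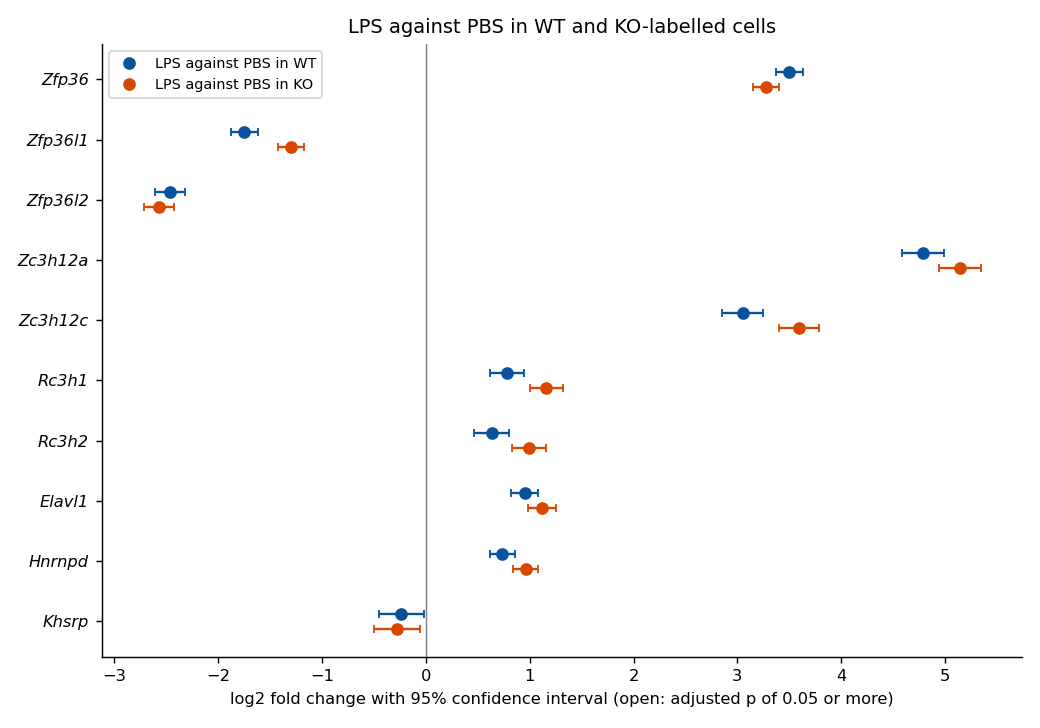
Log2 fold change of LPS against PBS for each member (x axis, with 95% confidence intervals) in WT (blue) and KO-labelled (orange) cells. The members run from 4.79 for Zc3h12a to -2.47 for Zfp36l2 in WT cells, and from 5.14 for Zc3h12a to -2.57 for Zfp36l2 in KO-labelled cells.

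How far the smaller rises hold depends on the scaling of the libraries. Values above rest on TMM scaling, and scaling by library totals alone shifted the median of all genes by -0.66 in WT and -0.80 in KO-labelled cells, and upper-quartile scaling by -0.31 and -0.36. Under library totals alone in WT cells, Rc3h1 stood at 0.12, Hnrnpd at 0.07 and Rc3h2 at -0.03, none past the threshold, and Elavl1 at 0.29 with its call kept. Zc3h12a at 4.13, Zfp36 at 2.84, Zc3h12c at 2.39, Zfp36l1 at -2.41 and Zfp36l2 at -3.13 kept direction and call, and Khsrp fell further, from -0.24 to -0.90. In KO-labelled cells library totals alone left Rc3h1 at 0.36, Elavl1 at 0.32, Rc3h2 at 0.19 and Hnrnpd at 0.16, each with its call kept.

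**Figure D4:**
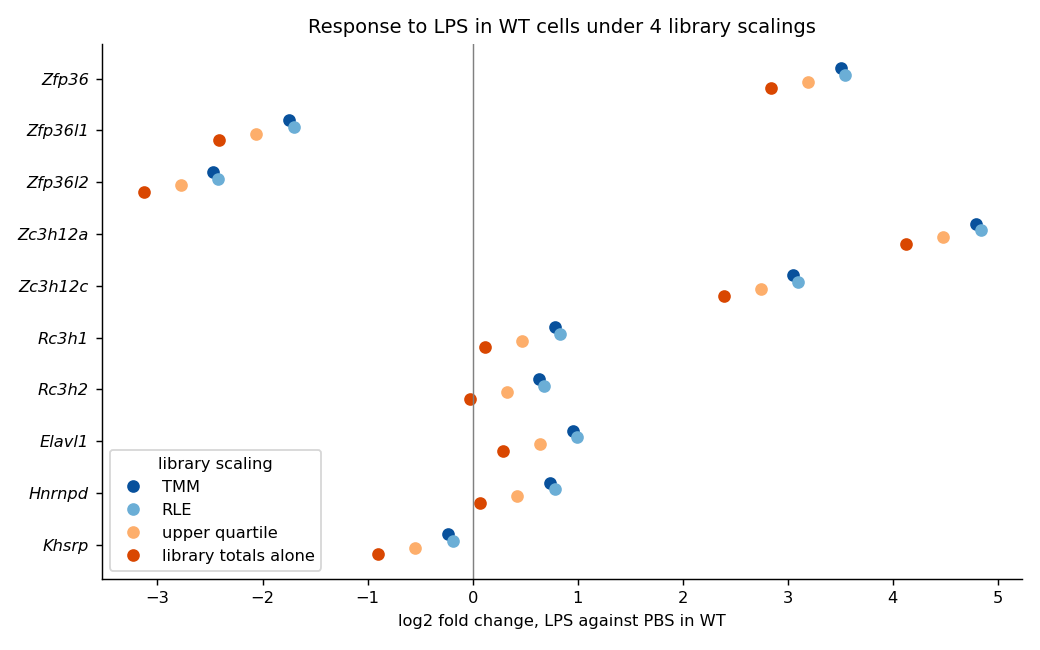
Log2 fold change of LPS against PBS in WT cells (x axis) for each member under 4 scalings of the libraries (colours). Zc3h12a, Zfp36, Zc3h12c, Zfp36l1 and Zfp36l2 stay on their side of 0 under each scaling, whereas Rc3h1, Rc3h2 and Hnrnpd fall to between -0.03 and 0.12 with library totals alone.

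Levels of different genes were compared per length, in RPKM. In WT PBS libraries the order was Zfp36l2 at 83.8 ± 0.66 RPKM (SD, n = 3), Zfp36 at 37.8 ± 1.23, Zfp36l1 at 24.6 ± 0.16, Khsrp at 19.7 ± 1.11 and Hnrnpd at 10.5 ± 0.09. Zc3h12a at 5.61 ± 0.29, Elavl1 at 4.58 ± 0.13, Rc3h1 at 2.55 ± 0.12, Zc3h12c at 1.33 ± 0.09 and Rc3h2 at 0.764 ± 0.08 RPKM followed. No neighbours in that order overlapped. With the longest transcript as the length Elavl1 passed Zc3h12a and Rc3h2 passed Zc3h12c.

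With LPS the order changed. In WT LPS libraries Zfp36 led at 428 ± 22.8 RPKM (SD, n = 3) and Zc3h12a came next at 155 ± 19.4 RPKM, ahead of all other members. Hnrnpd at 17.4 ± 1.22, Khsrp at 16.8 ± 3.10 and Zfp36l2 at 15.1 ± 1.66 RPKM overlapped, and Zc3h12c, 9th of 10 in PBS, stood 6th at 11.0 ± 0.43 RPKM. With the longest transcript as the length Zc3h12c was 10th in PBS and 7th in WT LPS, where Elavl1 stood 5th at 16.0 RPKM. In KO LPS libraries Zfp36 and Zc3h12a stood at 484 ± 15.5 and 216 ± 10.3 RPKM, and Hnrnpd at 21.9 ± 0.38, Zc3h12c at 21.3 ± 1.84 and Zfp36l2 at 20.4 ± 0.64 RPKM followed, where Zc3h12c overlapped both others and those did not overlap each other. Rc3h2 was last in each of the 4 groups by exon length.

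The members called between genotype labels were higher in KO-labelled than in WT cells, each by less than 1 on the log2 scale. Under PBS 5 of 10 members were called higher, where 12.3% of all genes were, and the members' median was 0.21 beside 0.0004 over all genes. Under LPS 9 of 10 were called higher, where 22.1% of all genes were, and the median was 0.45 beside 0.0006. None was called lower under PBS or LPS, by edgeR or by DESeq2, nor at an unadjusted p under 0.05. Over all genes 3058 were called under PBS, 48.6% of them higher, and 4990 under LPS, 53.4% of them higher, with the rest lower. Library totals alone left 7 of the 9 calls under LPS, without Zfp36 and Elavl1.

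Other markers moved with the genotype label. The 5 fibroblast markers summed to 75.1 to 88.6 CPM in WT PBS and 32.9 to 46.2 CPM in KO PBS, and to 118 to 132 CPM in WT LPS and 57.0 to 69.5 CPM in KO LPS libraries, with all 5 detected in each group. The 8 skeletal muscle markers summed to 22.1 to 28.2 CPM in WT PBS, 3.72 to 25.0 CPM in KO PBS, 32.6 to 38.6 CPM in WT LPS and 1.29 to 2.18 CPM in KO LPS libraries, where Myh1, Myh2, Myh4 and Tnnt3 were at 0. The 6 mesothelium markers summed to 9.08 to 9.72 CPM in WT PBS and 4.85 to 7.21 CPM in KO PBS libraries, and to 9.19 to 11.2 CPM in WT LPS and 6.08 to 9.02 CPM in KO LPS libraries. The neutrophil markers summed to 5.42 to 6.62 CPM in WT PBS and 7.23 to 7.83 CPM in KO PBS libraries, and to 11.4 to 13.9 CPM in WT LPS and 13.4 to 21.1 CPM in KO LPS libraries. The mast cell markers summed to 0.644 to 0.904 CPM in WT PBS and 0.175 to 0.456 CPM in KO PBS libraries, and to 1.02 to 1.42 CPM in WT LPS and 2.82 to 3.56 CPM in KO LPS libraries, where Cpa3, Mcpt4 and Tpsb2 were at 0. The part of these in the genotype differences was not tested.

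Zc3h12c differed most between genotype labels under LPS, at 1.93-fold (log2 0.95, SE 0.08, adjusted p = 2.41e-07, edgeR), and was 1.32-fold higher under PBS (log2 0.40, SE 0.10, adjusted p = 0.00724). Zc3h12a did not pass the test under PBS (log2 0.13, 95% confidence interval -0.07 to 0.32) and was 1.39-fold higher under LPS (log2 0.48, SE 0.08, adjusted p = 0.000145). Zfp36l1 was 1.19-fold higher under PBS (log2 0.25, SE 0.06, adjusted p = 0.00371) and 1.63-fold higher under LPS (log2 0.70, SE 0.06, adjusted p = 5.64e-07). Zfp36l2 was 1.45-fold higher under PBS (log2 0.53, SE 0.06, adjusted p = 1.66e-05) and 1.34-fold higher under LPS (log2 0.43, SE 0.07, adjusted p = 0.000126). All of these rises were free of overlap between the groups' libraries, and none lost its call in any of 20 alternatives.

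Zfp36 was 1.33-fold higher in KO-labelled cells under PBS (log2 0.41, SE 0.06, adjusted p = 6.60e-05, edgeR) and 1.13-fold higher under LPS (log2 0.18, SE 0.05, adjusted p = 0.0147). The LPS call of Zfp36 was lost in 5 of 20 alternatives, among them without WT LPS replicate 3 (0.0699) and without KO LPS replicate 3 (0.0565). Elavl1 was level under PBS (log2 0.01, 95% confidence interval -0.12 to 0.14) and slightly higher under LPS (log2 0.18, SE 0.06, adjusted p = 0.0283). The LPS call of Elavl1 was lost in 7 of 20 alternatives, among them without WT LPS replicate 2 (0.0595), WT LPS replicate 3 (0.0976), KO LPS replicate 2 (0.0601) and KO LPS replicate 3 (0.112). Under LPS the libraries of both genes did not overlap. The same held under PBS for Rc3h1 and Hnrnpd, which were not called (adjusted p = 0.139 and 0.203, edgeR). How many of all genes were free of overlap is not given here.

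Rc3h1 and Rc3h2 were 1.45-fold and 1.55-fold higher in KO-labelled cells under LPS (log2 0.54 and 0.63, SE 0.08 and 0.08, adjusted p = 3.71e-05 and 1.15e-05, edgeR), and both calls held in 20 of 20 alternatives. Under PBS Rc3h2 was 1.20-fold higher (log2 0.27, SE 0.08, adjusted p = 0.0203), a call lost without WT PBS replicate 1 (0.0719) or WT PBS replicate 3 (0.0555). Rc3h1 under PBS did not pass the test (log2 0.16, 95% confidence interval -0.0007 to 0.32). Hnrnpd was 1.26-fold higher under LPS (log2 0.33, SE 0.06, adjusted p = 0.000233) and did not pass under PBS (log2 0.10, 95% confidence interval -0.02 to 0.23). Khsrp passed under neither, at log2 -0.06 (95% confidence interval -0.27 to 0.15) with PBS and -0.10 (-0.32 to 0.12) with LPS.

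**Figure D5:**
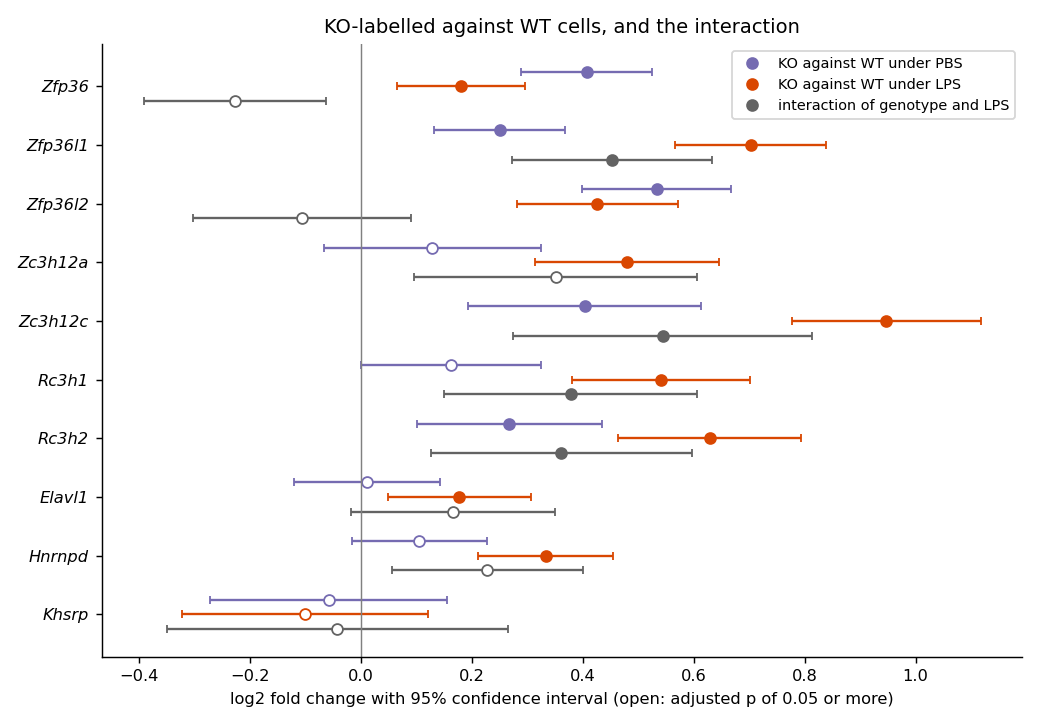
Log2 fold change of KO-labelled against WT cells under PBS and under LPS, and the interaction (the difference between those 2), for each member with 95% confidence intervals on the x axis and open points for adjusted p of 0.05 or more. Under LPS 9 of 10 members lie to the right of 0 with filled points, led by Zc3h12c at 0.95, and Khsrp lies at -0.10.

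Whether the response to LPS differed between genotype labels was tested by the interaction term, which shares its libraries with the comparisons above. Of the members 4 were called, each with the larger log2 fold change in KO-labelled cells, where 9.78% of all genes were called in that direction, and the median was 0.29 beside 0.0095 over all genes. Of the 2176 genes called in either direction over all genes, 54.2% had the larger value in KO-labelled cells. Zc3h12c differed by 0.54 (SE 0.13, adjusted p = 0.00776, edgeR), Zfp36l1 by 0.45 (SE 0.09, adjusted p = 0.00165), Rc3h1 by 0.38 (SE 0.11, adjusted p = 0.0228) and Rc3h2 by 0.36 (SE 0.11, adjusted p = 0.0330). For Zfp36l1 this means a smaller fall. DESeq2 called 5 members with the larger value in KO-labelled cells, and 6 passed at an unadjusted p under 0.05. Zc3h12a (0.35, adjusted p = 0.0548) gained a call without WT LPS replicate 1, at 0.46 (adjusted p = 0.000979), and Hnrnpd (0.23, adjusted p = 0.0623) with DESeq2 and without WT LPS replicate 2, at 0.28 (adjusted p = 0.0183). None was called in the other direction, where DESeq2 called 1 and 1 passed at an unadjusted p under 0.05, Zfp36 in both cases (-0.23, adjusted p = 0.0534 by edgeR). Zfp36 gained this call in 8 of 19 alternatives, namely DESeq2 and the edgeR fits with RLE, upper-quartile or total scaling, with at least 10 counts per library, and without WT PBS replicate 1, WT LPS replicate 3 or KO LPS replicate 3, with adjusted p from 0.00195 to 0.0499. Zfp36l1 and Zc3h12c kept their calls in 19 of 19 alternatives. Rc3h1 lost its call in 8, with library totals alone and without WT PBS replicate 2 or 3, WT LPS replicate 3, KO PBS replicate 1 or 2, or KO LPS replicate 1 or 3, with adjusted p up to 0.109. Rc3h2 lost its call in 10, with library totals alone or upper-quartile scaling and without WT PBS replicate 2 or 3, WT LPS replicate 2, any KO PBS replicate, or KO LPS replicate 1 or 3, with adjusted p up to 0.191. The count in either direction fell from 4 to 2 without WT PBS replicate 2, WT PBS replicate 3, KO PBS replicate 1, KO PBS replicate 2 or KO LPS replicate 1. Without KO LPS replicate 3 and with library totals alone Rc3h1 and Rc3h2 were lost as well, while Zfp36 gained a call in the other direction.

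The genes with profiles most like those of 3 members were found among all tested genes by the root mean square difference of log2 CPM over the 12 libraries, each profile centred on its own mean. For Zc3h12a, the member with the largest rise, these were Sp140 (0.14), Daxx (0.15) and Atp10a (0.15). For Zfp36l2, with the largest fall, they were Tgfbr1 (0.13), Mcoln3 (0.13) and Klf9 (0.14). For Zc3h12c, with the largest genotype difference under LPS, they were Slc25a37 (0.14), F10 (0.15) and Gm1966 (0.15).

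Genes known to act on these factors were counted next. Of 19 upstream regulators tested, 13 rose and 5 fell in WT cells (median log2 0.80), and 14 rose and 4 fell in KO-labelled cells (median 1.09). Of all genes 36.5% and 38.8% rose, and 40.2% and 41.1% fell. Library totals alone gave 10 higher and 8 lower in WT (median 0.14) and 11 higher and 8 lower in KO-labelled cells (median 0.29). Mapkapk2 (MK2), the kinase that phosphorylates TTP, rose from 194 ± 2.33 to 1635 ± 151 CPM (SD, n = 3) in WT cells (log2 3.08, adjusted p = 1.34e-16, edgeR). Malt1, the protease that cleaves Regnase-1 and Roquins, rose from 34.7 ± 1.51 to 426 ± 13.3 CPM (log2 3.62, adjusted p = 3.85e-17), and Dusp1, a phosphatase of p38, from 45.2 ± 2.12 to 434 ± 29.1 CPM (log2 3.27, adjusted p = 3.48e-17). Mapkapk3 fell (log2 -1.25, adjusted p = 3.55e-11). Under LPS 11 of the 19 were higher and 0 lower in KO-labelled than in WT cells, beside 22.1% of all genes higher, and edgeR at an unadjusted p under 0.05 and DESeq2 also gave 0 lower. Of the 4990 genes called in that comparison over all genes, 53.4% were higher and the rest lower. Malt1 reached 865 ± 71.9 CPM there (log2 1.02, adjusted p = 8.17e-09), and its interaction was 0.82 (adjusted p = 2.00e-05). Library totals alone gave 9 higher and 2 lower between genotype labels.

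Among 22 tested genes that encode other binders of AU-rich elements or stem-loops, 15 rose and 3 fell in WT cells and 15 rose and 2 fell in KO-labelled cells, with medians of 0.48 and 0.50, beside 36.5% and 38.8% of all genes that rose and 40.2% and 41.1% that fell. Library totals alone gave 6 higher and 12 lower in each. Arid5a, whose protein stabilises Il6 mRNA against Regnase-1, rose from 10.6 ± 1.02 to 265 ± 14.9 CPM in WT cells (log2 4.64, adjusted p = 6.18e-17, edgeR), and under LPS was lower in KO-labelled cells at 199 ± 6.72 CPM (log2 -0.42, adjusted p = 0.000467). N4bp1, a ribonuclease related to Regnase-1, rose from 41.1 ± 1.74 to 321 ± 16.8 CPM in WT cells (log2 2.97, adjusted p = 1.66e-16). Zc3h12d (Regnase-4) was lower in KO-labelled cells under LPS, at 14.0 ± 1.46 against 24.0 ± 0.29 CPM (log2 -0.78, adjusted p = 1.77e-06), opposite in direction to Zc3h12a and Zc3h12c. Of the 22, 9 were higher and 5 lower in KO-labelled cells under LPS (median 0.13), and 7 were higher and 7 lower with library totals alone. Over all genes 22.1% were higher there, and of the 4990 called 53.4% were higher and the rest lower. Fubp1 was among the higher ones, at 106 ± 6.21 against 74.6 ± 1.92 CPM (log2 0.51, adjusted p = 5.18e-06), as were Fxr1 (log2 0.49) and Hnrnpdl (log2 0.46). Hnrnpl fell with LPS from 132 ± 3.02 to 44.6 ± 3.18 CPM in WT cells (log2 -1.57, adjusted p = 2.93e-13). Between genotype labels under PBS 3 of the 22 were higher and 5 lower (median 0.04), and 5 higher and 5 lower with library totals alone. Over all genes 12.3% were higher under PBS, and of the 3058 called 48.6% were higher and the rest lower. Igf2bp2 (log2 -0.76), Ybx1 (-0.30) and Ptbp1 (-0.26) were among the lower, and Hnrnpdl (0.37), Tia1 (0.26) and Tial1 (0.20) were higher.

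The enzymes that carry out decay after the members have bound were counted by step. Of 19 deadenylases and adaptors, 7 rose and 5 fell in WT cells (median -0.03), beside 36.5% and 40.2% of all genes. Upper-quartile scaling gave 6 higher and 12 lower, and library totals alone 3 higher and 14 lower (median -0.70). Noct, a deadenylase relative under circadian control, rose from 9.07 ± 0.89 to 56.5 ± 1.76 CPM (log2 2.64, adjusted p = 8.21e-15, edgeR), and Cnot6l, a catalytic subunit of CCR4-NOT, fell from 50.3 ± 2.81 to 22.4 ± 3.36 CPM (log2 -1.16, adjusted p = 3.18e-09). Under LPS 11 of these 19 were higher and 0 lower in KO-labelled cells (also 0 lower by DESeq2 and at an unadjusted p under 0.05), beside 22.1% of all genes higher, led by Btg1 (log2 0.73, adjusted p = 5.45e-08) and Btg2 (log2 0.64, adjusted p = 1.73e-06), both antiproliferative adaptors of CCR4-NOT. Library totals alone gave 8 higher and 2 lower under LPS between genotype labels. Under PBS 6 were higher and 0 lower (also 0 lower by DESeq2 and at an unadjusted p under 0.05), beside 12.3% of all genes higher, and 10 were higher with library totals alone and 4 with upper-quartile scaling. Over all genes 3058 were called under PBS, 48.6% of them higher, and 4990 under LPS, 53.4% of them higher, with the rest lower.

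Of 20 decapping and 5′-to-3′ decay genes, 13 rose and 1 fell in WT cells (median 0.37), beside 36.5% and 40.2% of all genes, where upper-quartile scaling gave 8 higher and 6 lower and library totals alone 4 higher and 13 lower. Dcp2, the decapping enzyme, rose from 20.7 ± 0.46 to 159 ± 10.8 CPM (log2 2.94, adjusted p = 1.23e-15, edgeR) and Xrn1, the exonuclease that acts after it, from 26.7 ± 0.31 to 85.2 ± 9.44 CPM (log2 1.67, adjusted p = 2.72e-10). Of 17 exosome and 3′-to-5′ decay genes, 5 rose and 7 fell in WT cells (median 0.03), beside the same shares of all genes, where upper-quartile scaling gave 1 higher and 10 lower and library totals alone 0 higher and 16 lower. The core subunits Exosc6 (log2 -1.19, adjusted p = 4.60e-07) and Exosc5 (log2 -0.72, adjusted p = 4.08e-06) fell, and Exosc3 (log2 0.68, adjusted p = 0.000205), Exosc10 (log2 0.38) and Skiv2l (log2 0.38) rose. Between genotype labels under PBS, edgeR called 0 of the 20 decapping genes, with 2 higher and 1 lower at an unadjusted p under 0.05 and 2 higher by DESeq2, and 0 of the 17 exosome genes, with 1 higher and 1 lower at an unadjusted p under 0.05 and 0 by DESeq2. Under LPS 6 of the 20 were higher and 1 lower, and 5 of the 17 were higher and 1 lower, beside 22.1% of all genes higher. Of the 4990 genes called there over all genes, 53.4% were higher and the rest lower. Library totals alone gave 5 higher and 3 lower decapping genes and 1 higher and 1 lower exosome gene, and upper-quartile scaling 3 higher and 1 lower exosome genes.

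Transcripts described as targets of the members mostly rose with LPS, and under LPS, though not under PBS, most were higher in KO-labelled cells. The lists were written with earlier results of these data known, so their direction is no independent evidence. Of 17 tested ARE targets 14 rose and 3 fell with LPS in both genotype labels, where 36.5% of all genes rose and 40.2% fell in WT and 38.8% and 41.1% in KO-labelled cells. The WT median of 6.49 became 5.03 when 2 genes at the floor of 3 counts per library in PBS were set to their bound. Under LPS 13 were higher and 1 lower in KO-labelled cells, with a median of 1.36, beside 22.1% of all genes higher. Under PBS 2 were higher and 3 lower, with a median of -0.03, beside 12.3% of all genes higher. Over all genes 3058 were called under PBS, 48.6% of them higher, and 4990 under LPS, 53.4% of them higher, with the rest lower. Ccl2, a chemokine for monocytes, was lower in KO-labelled cells under PBS, at 28.6 ± 1.26 against 85.3 ± 2.34 CPM (log2 -1.58, adjusted p = 2.30e-08, edgeR). Of 9 tested Regnase-1 or Roquin targets 7 rose and 1 fell in WT cells, and 7 were higher and 1 lower in KO-labelled cells under LPS, with a median of 0.79, and 1 was higher and 1 lower under PBS, beside the same shares of all genes as for the ARE targets. Tnf, Il6 and Ptgs2 stand in both lists.

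The AU-rich stretches of 3 targets with large genotype differences under LPS, and the Roquin stem-loop of Tnf, 1 of 2 matches of this form in its 3′ UTR, are shown as above.
Tnf, chr17:35199681-35199710, minus strand: uuaUUAUUUAUUAUUUAUUUAUUAUUUAUU
Cxcl1, chr5:90892615-90892644, plus strand: AUUUAUgUAUUUAUUUAUUccacaaagugu
Cxcl2, chr5:90905336-90905365, plus strand: AUcuaugUAUUUAUUUAUUUAUUaauucca
Tnf, chr17:35199577-35199606, minus strand: cagacaugUUUUCUGUGAAAAcggagcuga
Tnf, a cytokine regulated by TTP and by Roquins, held 5 nonamers and 8 heptamers in 764 bases and stood under LPS at 2482, 2568 and 2704 CPM in WT and 6548, 6544 and 6837 CPM in KO-labelled libraries (log2 1.36, adjusted p = 2.31e-09, edgeR). Cxcl1, a chemokine for neutrophils, held 2 nonamers and went from 115 ± 10.4 to 1085 ± 57.3 CPM (log2 3.23, adjusted p = 9.38e-14). Cxcl2, a chemokine of the same kind with 4 nonamers, went from 788 ± 56.2 to 4022 ± 125 CPM (log2 2.35, adjusted p = 4.26e-06). Il6 with 1 heptamer and no stem-loop of this form went from 412 ± 62.8 to 1212 ± 54.6 CPM (log2 1.56, adjusted p = 1.00e-06). Not every target followed, since Fos, with 1 nonamer, was lower in KO-labelled cells under LPS at 20.1 ± 2.30 against 24.0 ± 0.88 CPM (log2 -0.26, adjusted p = 0.0161). Tfrc, the transferrin receptor with 3 stem-loops, was lower as well at 64.0 ± 5.45 against 115 ± 4.66 CPM (log2 -0.85, adjusted p = 1.18e-07).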

How the data were processed

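Each deposited table holds expected counts, which the authors estimated per gene and did not scale between libraries. The submitters' processing notes name Bowtie2, RSEM 1.3.1 and build GRCm38.p6, and the methods of the study name STAR and HTSeq. Expected counts were rounded and tested in R 4.3.3 with edgeR 4.0.16 (TMM scaling, filterByExpr, robust quasi-likelihood fit of all 12 libraries with a mean per group, two-sided p-values, Benjamini-Hochberg adjustment over 12064 genes, threshold 0.05), a procedure also tested on simulated data. CPM used TMM-scaled library sizes. The floor of 3 counts per library equals 0.105 to 0.187 CPM and covers counting error only. Members and gene lists were chosen with earlier results of these data known. Named list genes are from the 3 that changed most each way, per list and comparison, among those called whose higher group averaged 5 CPM or more. Alternatives were RLE, upper-quartile and total scaling, no filter, a minimum of 10 counts in each library, DESeq2 1.42.0, a fit of only the libraries compared, a replicate block, leaving out each library, and a log2 change over 1. List counts under other scalings were added after seeing the data. Zc3h12b, Elavl2, Elavl3, Ifng, Calcr and Icos did not pass the filter on low counts, and Elavl4 and Il2 were not analysed here. The libraries of a group are biological replicates by the labels, and p-values measure the spread between them.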

Additional observations from a re-analysis of the deposited data

Results flagged for a closer look

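Of the members, 4 were singled out because their response to LPS differed between WT and KO-labelled cells by the interaction test of edgeR with Benjamini-Hochberg adjustment. The log2 fold change with LPS was larger in KO-labelled cells by 0.45 for Zfp36l1 (adjusted p = 0.00165), by 0.54 for Zc3h12c (adjusted p = 0.00776), by 0.38 for Rc3h1 (adjusted p = 0.0228) and by 0.36 for Rc3h2 (adjusted p = 0.0330). Zfp36l1 fell less, and the other genes rose more. Over the alternatives the adjusted p ran from 4.31e-05 to 0.0113 for Zfp36l1, from 0.00224 to 0.0327 for Zc3h12c, from 0.00265 to 0.109 for Rc3h1 and from 0.0244 to 0.191 for Rc3h2.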

How the results depend on the processing

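Of 990 member values under alternatives, 921 kept direction and side of the threshold, 49 lost their call, 13 gained one and 7 changed sign. A further threshold of 1 on the log2 scale left 5 members called with LPS in WT, 7 in KO-labelled cells, 0 between genotype labels under PBS, 0 under LPS and 0 for the interaction. Leaving out 1 library gave 9 to 10 members with LPS in WT and in KO-labelled cells, 4 to 5 and 7 to 9 between genotype labels under PBS and LPS, and 2 to 5 for the interaction. Signs changed for Rc3h2 with LPS in WT under library totals alone (-0.028), for Elavl1 between genotype labels under PBS with upper-quartile scaling (-0.012), and with 1 library left out for Elavl1 under PBS (range -0.011 to 0.072, negative without WT PBS replicate 2) and for Khsrp under PBS (-0.090 to 0.017, positive without WT PBS replicate 1), under LPS (-0.21 to 0.056, positive without WT LPS replicate 1) and in the interaction (-0.15 to 0.11, positive without WT LPS replicate 1, and 0.00066 without KO LPS replicate 1). The causes were not tested.

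With the replicate block 10, 10, 5, 9 and 4 members were called, the same counts as without it. Same-numbered libraries correlated at -0.08 to 0.13. For LPS against PBS in KO-labelled cells the same number gave the highest correlation for replicates 1, 2 and 3. In the other comparisons it did so only for replicate 1 (LPS against PBS in WT) or replicate 2 (both genotype comparisons). Whether the numbers pair libraries was not tested, and such weak correlations between few libraries cannot decide it. Over all genes, the count between genotype labels under PBS was 3058, and 4627 in a fit of only the libraries compared or 1992 without KO PBS replicate 1. The share of calls that were higher, 47.6% with LPS in WT, 48.6% in KO-labelled cells, 48.6% and 53.4% between genotype labels under PBS and LPS and 54.2% for the interaction, was 32.5%, 33.8%, 42.2%, 41.6% and 43.1% with upper-quartile scaling and 21.2%, 20.8%, 61.6%, 37.9% and 24.4% with library totals alone.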
